A study of Mus musculus with 947 samples.

Results

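Livers of mice joined by parabiosis were profiled by small RNA sequencing, and RNA levels were compared between mice that shared their circulation with a partner of their own age and mice that shared it with a partner of another age. The libraries described are the 30 parabiosis libraries whose names carry the liver prefix, out of 176 parabiosis libraries from 6 tissues and 947 libraries in all, and each was placed by the group deposited for it. Isochronic young (IY) livers came from 8 mice of 4 young pairs, 4 mice of 3 months and 4 of 4.5 months. Heterochronic young (HY) livers came from 7 mice of 4 months, each sewn to 1 of the 7 heterochronic aged (HA) mice of 19 months. Isochronic aged (IA) livers came from 8 mice of 19 months in 4 aged pairs. All mice were male, remained joined for 5 weeks through the peritoneum and were perfused with PBS before the organs were taken, so every group carried the surgery. All HY mice were of a different strain from the other groups, which were of C57BL/6JN, or of C57BL/6J in 1 of 2 sources for 3 aged mice. In HY minus IY the partner, and in HA minus HY the age, therefore cannot be told apart from the strain.

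MicroRNAs (miRNAs) are short RNAs that guide Argonaute proteins to messenger RNAs, mainly through a seed near their 5′ end, and lower the output of the messages they bind. The miRNA pool of hepatocytes is dominated by miR-122, and miRNAs of endothelium, stellate cells and blood cells add to that of whole liver. The miRNAs on which the age comparisons turned come from a cluster on the X chromosome that is best known from the testis, where it is expressed during germ cell development. In heterochronic parabiosis blood-borne factors and circulating cells are exchanged, and the design asks whether a tissue's profile follows its own age or that of its partner.

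The sequences of the X-linked miRNAs with the highest levels or a shared seed are shown first, because these miRNAs made up most of the called differences. Mature sequences are from RefSeq (GRCm38.p6), written 5′ to 3′, with the seed (bases 2 to 8) in capitals. The mature forms of miR-465a-3p, miR-465b-3p and miR-465c-3p have 1 sequence, so reads cannot be split between them. The pairs miR-743a-3p and miR-743b-3p, miR-743a-5p and miR-871-5p, miR-883a-3p and miR-883b-3p, and miR-465b-5p and miR-465c-5p each share a seed, and 27 different seeds were found among the 33 miRNAs of the cluster. All lie on the minus strand of the X chromosome, with miR-465a-3p at chrX:66839063-66839084, miR-880-3p at chrX:66800540-66800561, miR-741-3p at chrX:66796809-66796831 and miR-743a-3p at chrX:66776760-66776781.
miR-465a-3p: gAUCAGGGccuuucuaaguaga
miR-743a-3p: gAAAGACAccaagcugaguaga
miR-743b-3p: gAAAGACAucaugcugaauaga
miR-743a-5p: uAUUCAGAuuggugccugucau
miR-871-5p: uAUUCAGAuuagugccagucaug
miR-883a-3p: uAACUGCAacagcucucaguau
miR-883b-3p: uAACUGCAacaucucucaguau
miR-465b-5p: uAUUUAGAauggugcugaucug
miR-465c-5p: uAUUUAGAauggcgcugaucug
miR-880-3p: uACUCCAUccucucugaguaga
miR-741-3p: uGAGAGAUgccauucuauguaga

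The inflammation-linked miR-155-5p, which was the 1 called miRNA outside the cluster, and the miR-29 family, which the study followed across tissues, are shown for the same reason. The 3 abundant miR-29 arms share the seed AGCACCA. miR-155-5p lies on the plus strand at chr16:84714143-84714165 and miR-29c-3p on the plus strand at chr1:195037600-195037621.
miR-155-5p: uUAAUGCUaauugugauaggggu
miR-29a-3p: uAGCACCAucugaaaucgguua
miR-29b-3p: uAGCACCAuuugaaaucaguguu
miR-29c-3p: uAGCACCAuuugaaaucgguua

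The 30 libraries held 9.87 to 27.98 M mapped reads (median 17.7 M). Levels are given as reads per 1000000 mapped reads (rpmm), where 3 reads correspond to 0.107 to 0.304 rpmm depending on the library. The hepatocyte miRNA miR-122-5p checked the tissue label, with 65871 to 119549 rpmm in IY, 23123 to 101369 in HY, 74896 to 121391 in HA and 68816 to 146922 in IA. The lowest value belonged to the library of HY mouse 2B, which stood apart. Transfer RNA made up 27.1% of its filtered signal and miRNA 6.38%, against tRNA shares of 15.2% and 11.1% in IA mice 9A and 9B and of 1.57% to 5.93% in the remaining libraries. Heart miRNAs were raised in the 7 liver libraries of sequencing pool 8, which comprised 3 HA, 3 HY and 1 IA but no IY library and was shared with 9 heart libraries. The cardiac miR-208a-3p measured 19.4 to 27.6 rpmm in these libraries, 7.67 in IA mouse 7A and at most 0.627 elsewhere. The median of the 7 was 0.242% of the median of the heart libraries of that pool.

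Across the 4 contrasts, RNAs were called between ages and none between partners (plot of the 4 contrasts). Of 3102 distinct RNAs with at least 1 rpmm in 3 or more libraries, 22 were higher in IA than in IY and 23 were higher in HA than in HY at an adjusted p under 0.05 (limma on log2(rpmm + 1), Benjamini-Hochberg), which is 0.709% and 0.741% of the RNAs tested, and none was lower. No RNA was called in HA minus IA or in HY minus IY by limma or by edgeR. In HA minus IA 42 RNAs had an unadjusted p under 0.05 by limma and 120 by edgeR, and in HY minus IY 236 and 426. At that threshold limma had 69 RNAs higher (2.22%) and 167 lower (5.38%) in HY than in IY, 21 higher and 21 lower (0.677% each) in HA than in IA, 77 higher (2.48%) and 6 lower (0.193%) in IA than in IY, and 140 higher (4.51%) and 225 lower (7.25%) in HA than in HY. The smallest adjusted p was 0.954 in HA minus IA and 0.584 in HY minus IY. By the study's criterion, a ratio of mean rpmm above 3/2 or under 2/3 with an unadjusted p under 0.05, 18 RNAs were higher (0.58%) and 17 lower (0.548%) in HA than in IA, 56 higher (1.81%) and 37 lower (1.19%) in HY than in IY, 73 higher (2.35%) and 6 lower (0.193%) in IA than in IY, and 110 higher (3.55%) and 174 lower (5.61%) in HA than in HY. The difference of the 2 age contrasts, (HA minus HY) minus (IA minus IY), gave 0 calls by limma and 124 RNAs at an unadjusted p under 0.05. The IY mice of 4.5 and of 3 months gave 0 calls when set against each other by limma, with 106 RNAs at an unadjusted p under 0.05.

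**Figure D1:**
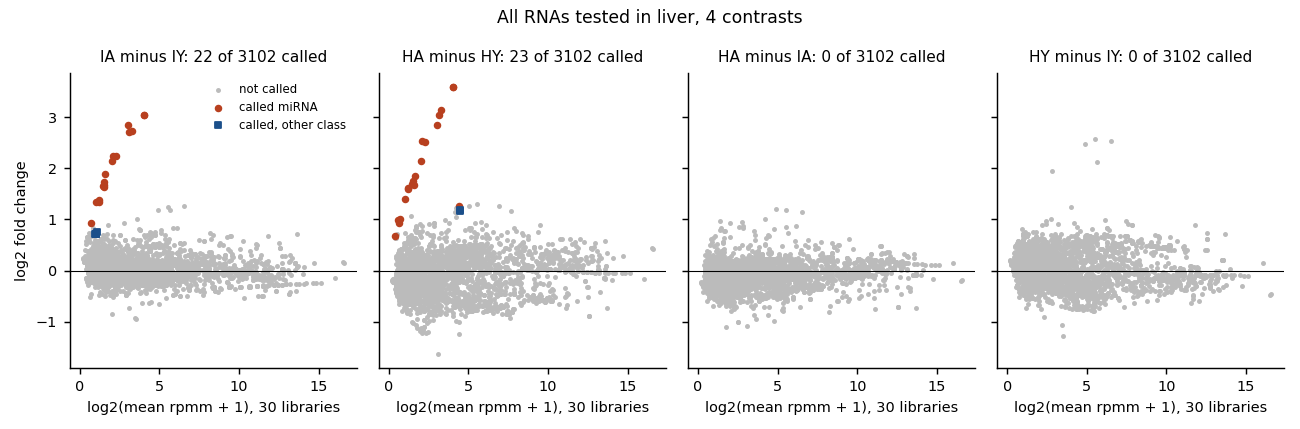
Difference between groups (log2 fold change of rpmm + 1, y axis) against mean level (log2(mean rpmm + 1), x axis) for each of the 3102 RNAs tested, 1 panel per contrast, with called miRNAs (red) and called RNAs of other classes (blue) marked. The called RNAs lie above 0 in IA minus IY and in HA minus HY, and the panels of HA minus IA and HY minus IY hold none.

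The called miRNAs of both age contrasts belonged to the X-linked cluster, with miR-155-5p in HA minus HY as the exception. The cluster comprises 33 mature miRNAs in the deposited table. Of these 27 passed the filter, 26 of them with distinct values because miR-465b-3p repeats miR-465a-3p. Of the 26, 17 were called higher in IA than in IY (against 0.709% of all RNAs) and 20 higher in HA than in HY (against 0.741%). The median log2 fold change was 1.503 and 1.646, against 0.02 and -0.10 over all RNAs. Since 17 of the 26 reached 1 rpmm in no young library, they passed the filter through the aged livers, and these counts describe the members without being a test of the list. In whole liver, fewer cells of a type and less RNA per cell cannot be told apart.

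The cluster member with the highest level was miR-465a-3p. In IY it measured 0.879 to 4.48 rpmm (median 2.05), in HY 0.166 to 1.89 (median 1.00), in HA 5.55 to 71.1 (median 30.97) and in IA 13.95 to 44.3 (median 21.2). Every aged liver therefore lay above every young liver, and aged livers with young and with aged partners overlapped. Its mean in IA was 12.2 times that in IY, and on the log2 scale the difference was 3.04 with an SE of 0.37 (adjusted p = 3.22e-06). The mean in HA was 28.1 times that in HY, with a log2 difference of 3.60 and an SE of 0.40 (adjusted p = 3.11e-07). Hereafter, values after ± beside a log2 fold change are SE. Its differences by partner were 0.04 ± 0.38 in HA minus IA and -0.51 ± 0.38 in HY minus IY on the log2 scale, and neither passed the test.

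Of the members next in level after the 3p arms of miR-465, miR-880-3p, miR-871-5p and miR-741-3p, the first and the last did not overlap between young and aged livers, and miR-871-5p did. For miR-880-3p the range was 0.463 to 2.58 rpmm in IY, 0.125 to 1.36 in HY, 2.80 to 33.3 in HA and 7.58 to 21.0 in IA (medians 1.21, 0.679, 21.5 and 12.7). For miR-741-3p it was 0.139 to 1.46 in IY, 0.248 to 1.18 in HY, 2.37 to 39.6 in HA and 5.41 to 20.2 in IA (medians 0.832, 0.536, 15.0 and 10.9). The log2 fold change of miR-880-3p was 2.73 ± 0.34 in IA minus IY (adjusted p = 3.68e-06) and 3.14 ± 0.37 in HA minus HY (adjusted p = 9.63e-07), and that of miR-741-3p was 2.85 ± 0.36 (adjusted p = 3.68e-06) and 2.85 ± 0.39 (adjusted p = 9.36e-06).

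Members that share a seed rose together in some pairs and by unequal amounts in others. With miR-743b-3p at 0.231 to 1.21 rpmm in IY, 0 to 0.501 in HY, 1.28 to 22.6 in HA and 3.02 to 11.6 in IA, the log2 fold change was 2.24 ± 0.31 in IA minus IY (adjusted p = 1.52e-05) and 2.51 ± 0.34 in HA minus HY (adjusted p = 9.36e-06). Its relative miR-743a-3p, at 0.052 to 0.520 rpmm in IY and 0 to 0.228 in HY, reached 0.964 to 17.7 in HA and 2.16 to 9.92 in IA, with log2 fold changes of 2.23 and 2.53. For miR-871-5p, at 0.231 to 1.97 rpmm in IY, 0.083 to 0.974 in HY, 1.61 to 35.1 in HA and 7.10 to 20.3 in IA, they were 2.71 ± 0.37 (adjusted p = 1.00e-05) and 3.04 ± 0.39 (adjusted p = 5.37e-06). For miR-871-5p the lowest HA liver lay inside the IY range, whereas IA did not overlap IY and HA did not overlap HY. Its seed partner miR-743a-5p had the smallest change among the members called in both age contrasts, with 0.93 in IA minus IY (adjusted p = 0.00328) and 1.00 in HA minus HY (adjusted p = 0.00303).

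**Figure D2:**
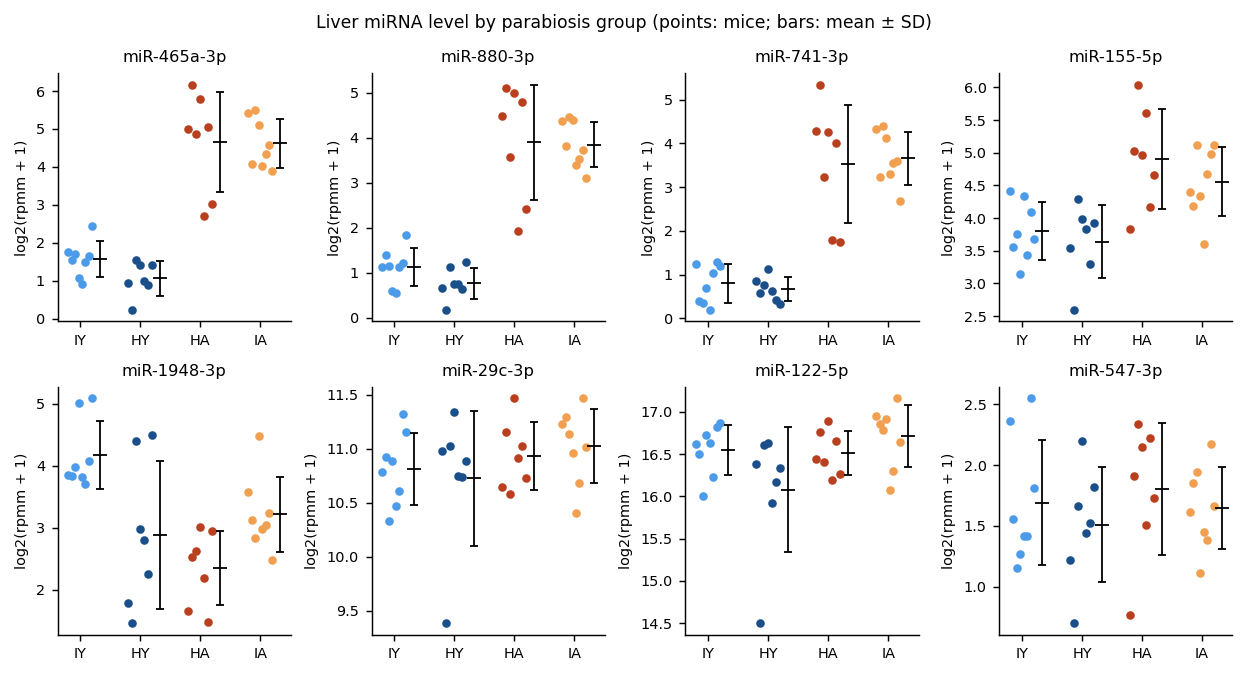
Level of 8 miRNAs as log2(rpmm + 1) (y axis) in the 4 groups (x axis), with 1 point per mouse and the group mean ± SD. The X-linked miR-465a-3p, miR-880-3p and miR-741-3p separate aged from young livers, miR-547-3p and miR-29c-3p overlap in all groups, and the lowest miR-122-5p point is HY mouse 2B.

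The remaining members had smaller differences. In HA minus HY alone, miR-878-5p (log2 fold change 1.00, adjusted p = 0.00849), miR-883a-5p (0.67, adjusted p = 0.0293) and miR-883b-3p (0.94, adjusted p = 0.0365) were called, and in IA minus IY the same miRNAs had 0.74 (adjusted p = 0.0966), 0.59 (adjusted p = 0.0559) and 0.66 (adjusted p = 0.378). The call of miR-883b-3p in HA minus HY was lost in 12 of 31 alternatives, that of miR-878-5p in 6 of 31 and that of miR-883a-5p in 3 of 26. Whether the contrasts differ for them was tested by the interaction, in which none of the 26 members had an unadjusted p under 0.05 by limma. The members of low level that were called in neither contrast had log2 fold changes of 0.52 and 0.63 (miR-463-3p), 0.66 and 0.66 (miR-470-3p), 0.64 and 0.71 (miR-471-5p), and 0.66 and 0.64 (miR-741-5p), in IA minus IY and HA minus HY respectively. These are the less abundant arms of their hairpins, with medians in young liver under the 3-read floor.

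The members with the smallest differences lay apart from the rest on the X chromosome. The 19 precursors from Mir743 to Mir465 lie on the minus strand of chrX:66776757-66839125 (GRCm38), a stretch of 62.4 kb between the genes Slitrk2 and Gm1140 with no protein-coding gene inside. Mir201 and Mir547, which the list also holds, lie apart from them at chrX:67988096-67988451, between 4933436I01Rik and Fmr1, the fragile X gene. miR-547-3p measured 1.23 to 4.87 rpmm in IY, 0.623 to 3.60 in HY, 0.701 to 4.05 in HA and 1.16 to 3.51 in IA, with complete overlap and log2 fold changes of -0.04 ± 0.24 and 0.29 ± 0.25. For miR-201-5p the log2 fold changes were 0.11 ± 0.19 in IA minus IY and 0.07 ± 0.20 in HA minus HY.

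**Figure D3:**
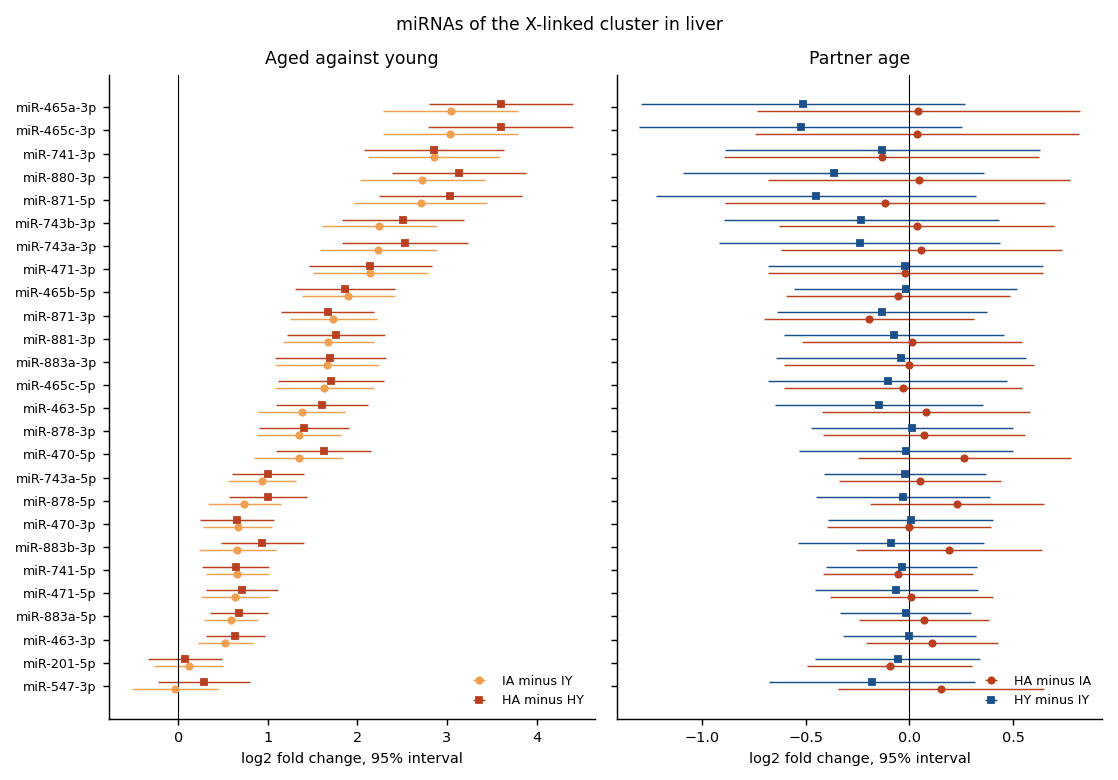
Log2 fold change with its 95% interval for the 26 members of the X-linked cluster tested, with the age contrasts (IA minus IY, HA minus HY) on the left and the partner contrasts (HA minus IA, HY minus IY) on the right. In the age contrasts the members run from about 0 for miR-547-3p and miR-201-5p to 3.04 and 3.60 for miR-465a-3p, and in the partner contrasts the median is 0.04 and -0.07.

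No member of the cluster was called between partners. None of the 26 members was called in HA minus IA or in HY minus IY by limma, where 16 and 2 of them had a positive log2 fold change. For 22 of the 26 members no IA liver overlapped an IY liver, against 25 of all RNAs (0.806%), and for 16 no HA liver overlapped an HY liver, against 16 of all RNAs (0.516%). Within the heterochronic pairs 18 of the 26 members were higher in the aged partner in 7 of 7 pairs. Of the 6 members that did not pass the filter, miR-201-3p was at 8 to 14 reads per group in sum, and the other 5 (miR-465d-3p, miR-742-3p, miR-742-5p, miR-743b-5p and miR-883b-5p) held 13 to 85 reads in sum in HA or IA and 1 to 8 in IY or HY.

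Aged livers varied in how far the cluster was raised. Its summed level over the 26 members was 7.22 to 28.1 rpmm in IY (median 13.7), 2.86 to 15.0 in HY (median 9.23), 83.0 to 223.1 in IA (median 123) and 31.2 to 387 in HA (median 181). The HA range was wider than that of IA at both ends. HA mice 12A and 20A had the lowest sums, 31.2 and 39.04 rpmm, which were below the lowest IA liver yet above the highest young liver, and mouse 12A was among the 2 lowest HA livers for 25 of the 26 members. The ratio of the aged to the young partner was 2.93 in pair 20, 3.38 in pair 12, 9.02 in pair 5, 17.8 in pair 11, 19.6 in pair 1, 25.5 in pair 14 and 135 in pair 2. The young partner of pair 2 is mouse 2B, whose library stood apart. A sum counts reads of miR-465a-3p and miR-465c-3p more than once because their sequences are identical.

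The same members were compared in liver against the other tissues of the same mice, which describes them and is no independent test, since 17 of the 26 entered through the aged livers. After the mean over each mouse's other tissues was taken from its liver value, 17 of the 26 members were called higher in IA minus IY and 19 in HA minus HY (limma), against 18 (0.58%) and 20 (0.645%) of the 3102 RNAs. In heart the summed level was 14.3 to 32.3 rpmm in IY, 18.3 to 31.2 in HY, 17.9 to 34.8 in HA and 22.9 to 39.9 in IA, so the groups overlapped. In gonadal fat it ran from 1.25 to 81.0 in IY and from 3.42 to 476 in IA, again with overlap. For HA minus IA the same test gave 0 calls over 2446 RNAs, with 39 at an unadjusted p under 0.05 by limma.

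A cohort of mice that were never joined gave the course over age. In its 51 liver libraries the mean of miR-465a-3p was 0.410 rpmm at 1 month, 0.801 at 3 months, 2.74 at 6 months, 12.1 at 9 months, 12.0 at 12 months, 14.4 at 15 months, 24.5 at 18 months, 69.4 at 21 months, 102 at 24 months and 149 at 27 months, from 3 to 6 mice per age. The sexes were not separated in these means. By the paper's design females were taken only up to 21 months, so the values at 24 and 27 months are of males alone. The spread within an age was wide, from 0.0662 to 8.66 rpmm at 6 months, 0.407 to 39.8 at 9 months, 1.11 to 37.3 at 18 months, 2.80 to 177 at 21 months, 55.1 to 190.4 at 24 months and 122 to 183 at 27 months. Without the highest mouse the mean was 1.56 at 6 months, 5.17 at 9 months, 42.5 at 21 months and 57.4 at 24 months. Between 21 and 3 months, with sex as a covariate, 29 RNAs were called higher (0.911%) and 3 lower (0.0942%) of 3184. Scaled to summed miRNA the split was 18 higher and 18 lower, and in males alone 22 were higher and 0 lower by limma. The cluster gave 16 of the 29, its 26 members were all positive, and their median log2 fold change was 1.54 against 0.02 for all RNAs. For miR-465a-3p it was 4.07 ± 0.66 (adjusted p = 0.00022), for miR-871-5p 3.35 (adjusted p = 0.000927), for miR-880-3p 3.26 and for miR-741-3p 2.95 (adjusted p = 0.00165 for both), while miR-547-3p had 1.04 (adjusted p = 0.115) and miR-201-5p 0.68 (adjusted p = 0.278).

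Over 432 miRNAs tested in both cohorts, which share no library, the log2 fold changes of the aging cohort had a Pearson r of 0.74 with IA minus IY and of 0.60 with HA minus HY, and of -0.13 with HA minus IA and 0.06 with HY minus IY. Over all 2931 RNAs tested in both, r was 0.22 with IA minus IY, 0.30 with HA minus HY, 0.18 with HA minus IA and -0.06 with HY minus IY. In the same order of contrasts, 266, 352, 226 and 85 of the 432 miRNAs had the sign of the aging cohort. Over the 2931 RNAs the counts were 1328, 1800, 1662 and 1217. These correlations run across RNAs, which are not independent replicates, and levels were normalised in the same way in both cohorts. They include the 26 members of the X-linked cluster, of which 17 passed the filter through the aged livers. An r without the cluster was not computed. Of the calls, 16 were shared between IA minus IY and the aging cohort (72.7% of the first list and 55.2% of the second), 19 between HA minus HY and the aging cohort (82.6% and 65.5%), and 17 between the 2 parabiosis age contrasts (77.3% and 73.9%).

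**Figure D4:**
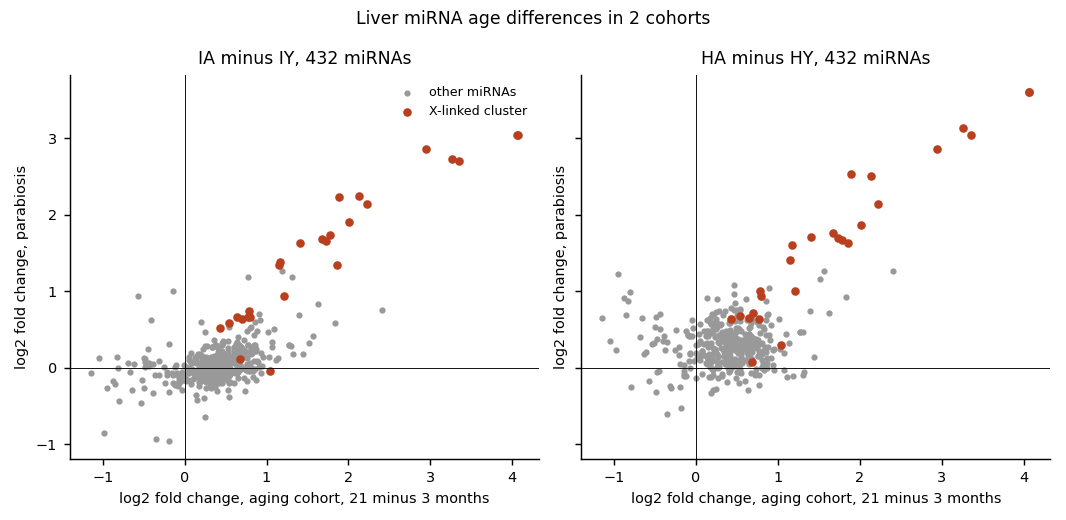
Log2 fold change of 432 miRNAs between 21 and 3 months in the aging cohort (x axis) against that in IA minus IY and in HA minus HY (y axes, 1 panel each), with the X-linked cluster marked. The cluster lies in the upper right of both panels, and r, taken with the cluster included, is 0.74 and 0.60.

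Outside the X-linked cluster, miR-155-5p, a miRNA that activated immune cells are known to raise, was called in 1 contrast. It measured 7.85 to 20.4 rpmm in IY (median 12.1), 5.02 to 18.6 in HY (median 13.3), 13.3 to 65.0 in HA (median 30.3) and 11.1 to 33.9 in IA (median 22.4). Aged and young livers overlapped in both pairings, although the aged partner was higher in 7 of 7 heterochronic pairs. In HA minus HY the log2 fold change was 1.26 ± 0.30 (adjusted p = 0.0345), and in IA minus IY it was 0.75 ± 0.28 (adjusted p = 0.718). The difference of these was 0.51 ± 0.42 (unadjusted p = 0.228 in the limma fit across all RNAs), so the contrasts are not shown to differ. The call was lost in 13 of 32 alternatives, among them the fit without mouse 2B (1.09, adjusted p = 0.125), the fit with the pair as a fixed block (adjusted p = 0.138) and scaling to summed miRNA (0.91, adjusted p = 0.270). In the aging cohort miR-155-5p was higher at 21 than at 3 months, with a log2 fold change of 2.41 ± 0.51 (adjusted p = 0.00498). Its precursor lies at chr16:84714140-84714204 inside the host gene Mir155hg (chr16:84703167-84715245, GRCm38), and 2 Mir155hg transcripts were called beside it in HA minus HY (log2 fold changes 1.19 ± 0.30 and 1.17 ± 0.29, adjusted p = 0.0464 for both). Each transcript's call was lost in 22 of 31 alternatives. Their levels were nearly those of miR-155-5p itself, so they are no separate evidence.

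Of the white blood cell miRNAs, 11 of 13 passed the filter and miR-155-5p was the 1 called in HA minus HY, the list's median log2 fold change being 0.23 against -0.10 for all RNAs and 0.30 for all miRNAs. In IA minus IY 0 of the 11 were called by limma, with 1 at an unadjusted p under 0.05. The part of blood cells in the miR-155-5p result was not tested. The leukocyte miR-142a-3p ran from 62.6 to 740 rpmm in HA and from 70.02 to 511 in HY, and the lymphocyte miR-150-5p from 13.0 to 168 and from 12.2 to 68.9, all overlapping.

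The non-miRNA calls of IA minus IY were 5 small nucleolar RNAs (snoRNAs) from the imprinted Snrpn to Ube3a interval, whose tandem C/D box snoRNAs are known from neurons. Gm25098 measured 0.233 to 1.11 rpmm in IY (median 0.624), 0.415 to 1.49 in HY (median 0.854), 0.643 to 2.53 in HA (median 1.01) and 0.911 to 3.49 in IA (median 1.68). IA and IY overlapped, and the young values lie within a few times the 3-read floor. Its log2 fold change in IA minus IY was 0.76 ± 0.18 (adjusted p = 0.0283), and those of Gm24100 (0.72, adjusted p = 0.0354), Gm22834 (0.71, adjusted p = 0.0354), Gm24862 (0.71, adjusted p = 0.0414) and Gm23254 (0.72, adjusted p = 0.0447, named after its values were seen) were close to it. All 5 are 79 bases long and differ at 6 positions, so their reads cannot be assigned with certainty. Of 29 distinct snoRNAs of chr7:59228750-59982495 that passed the filter, 29 had a positive log2 fold change in IA minus IY, with a median of 0.47 against -0.01 for all snoRNAs. Of the 29, 9 match a called copy at 71 or more of 79 bases, so they are not independent. Gm23254, Gm24100 and Gm24862 reached at most 0.783, 0.904 and 0.973 rpmm in IY and passed the filter through other groups. The counts therefore describe the members without being a test of the list. In HA minus HY 0 of the 29 were called or had an unadjusted p under 0.05 by limma, and their median was 0.09.

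The highest value of these snoRNAs was that of IA mouse 6B. The same library had the highest levels of the neuronal miRNAs miR-124-3p, at 10.9 rpmm against at most 2.00 in the other livers, and miR-9-5p, at 4.07 rpmm against at most 1.77. Without pair 6 the log2 fold change of Gm25098 was 0.64 (adjusted p = 0.289). The call of Gm25098 was lost in 14 of 31 alternatives and those of Gm24100, Gm22834 and Gm24862 in 17 each. The part of nerve tissue in the result was not tested.

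In HA minus IA, which asks whether a young partner changed the aged liver, the 5 miRNAs with the smallest p at a mean of at least 10 rpmm were miR-1247-5p, let-7e-5p, miR-744-5p, miR-1948-3p and miR-210-3p, none of which was called (adjusted p at least 0.954). let-7e-5p, of the let-7 family of growth-restraining miRNAs, measured 223 to 660 rpmm in HA (median 374) and 320.3 to 811 in IA (median 614), a log2 fold change of -0.60 ± 0.24 (unadjusted p = 0.0177 in the limma fit across all RNAs). miR-1247-5p measured 4.98 to 10.43 rpmm in HA and 7.86 to 42.9 in IA (-0.94 ± 0.37). The hypoxia-responsive miR-210-3p was at 7.998 to 18.3 rpmm in HA and 4.17 to 18.06 in IA (0.59 ± 0.26), and miR-744-5p at 66.0 to 107 and 34.5 to 81.8 (0.57 ± 0.24). HA and IA overlapped for each.

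The miRNAs of the imprinted Dlk1-Dio3 domain leaned towards HA in this contrast. Of 74 listed in the files 20 passed the filter, 18 of these had a positive log2 fold change, 10 had an unadjusted p under 0.05 and 0 were called by limma, where 21 of all RNAs (0.677%) were higher at an unadjusted p under 0.05. Their median log2 fold change was 0.66, against -0.09 for all RNAs. Of these members, miR-154-3p and miR-369-3p passed the filter through heterochronic livers alone. They reached at most 0.683 and 0.911 rpmm in IA and 0.607 and 0.910 in IY, against 2.17 and 4.64 in HA. The counts therefore describe the members without being a test of the list. The median of their summed level was 65.7 rpmm in HA and 64.0 in IA, and the HA maximum was 322 against 89.1. The high HA mice differed between members. miR-379-5p measured 68.1, 43.04 and 61.8 rpmm in HA mice 5A, 11A and 14A, 7.30 to 13.3 in the other 4 HA livers and 2.98 to 22.7 in IA. miR-376a-3p measured 8.61, 15.1 and 41.1 rpmm in the same 3 mice, 2.40 to 4.54 in the other 4 and 0.832 to 7.29 in IA. miR-376c-3p was high in mice 11A (5.59 rpmm) and 14A (8.99 rpmm), while mouse 5A had the lowest HA value (0.911 rpmm). HY mouse 1B, the partner of HA mouse 1A, was high as well, with 36.7 rpmm of miR-379-5p and 17.5 rpmm of miR-376a-3p. Within sequencing pool 9 alone, with 3 HA and 5 IA livers, 7 miRNAs were called higher in HA than in IA, namely miR-12182-3p and the Dlk1-Dio3 members miR-376c-3p, miR-411-3p, miR-300-3p, miR-369-3p, miR-376b-3p and miR-409-3p, which were named after their values were seen. The HA livers of pool 9 were those of mice 11A, 12A and 14A. Mice 11A and 14A were picked out above as high, and the HA livers of the other pools are left out. The pool 9 calls are therefore no separate evidence. In HA minus HY, which shares the HA livers, the 20 members had a median of 0.57 and 5 had an unadjusted p under 0.05, and in HY minus IY and IA minus IY the median was 0.09 and -0.06.

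In HY minus IY, which asks whether an aged partner changed the young liver, the 5 miRNAs with the smallest p were miR-1948-3p, miR-1948-5p, miR-145b, miR-574-3p and miR-133b-3p, and none was called. miR-1948-3p measured 12.1 to 33.2 rpmm in IY (median 14.1), 1.74 to 21.7 in HY (median 6.01), 1.79 to 7.11 in HA (median 4.80) and 4.56 to 21.4 in IA (median 7.45). The IY livers were the highest as a group and the HA livers the lowest, and only HA did not overlap IY. Its log2 fold change was -1.29 ± 0.38 in HY minus IY (unadjusted p = 0.00168, adjusted p = 0.584 in limma), -0.86 ± 0.38 in HA minus IA (adjusted p = 0.954), -0.96 ± 0.36 in IA minus IY (adjusted p = 0.718) and -0.53 ± 0.39 in HA minus HY (adjusted p = 0.559). In the aging cohort it was -0.19 (adjusted p = 0.892). For miR-145b the log2 fold change in HY minus IY was -0.74 ± 0.31 and for miR-574-3p -0.61 ± 0.26.

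Several cardiac and muscle miRNAs moved with the sequencing pool. The cardiac and skeletal muscle miR-133b-3p had a log2 fold change of 2.48 ± 1.098 in HY minus IY (unadjusted p = 0.0310 in limma), and of 7 striated muscle miRNAs that passed the filter, of 15 in the list, 5 had an unadjusted p under 0.05 and 0 were called (smallest adjusted p = 0.584). The skeletal muscle miR-206-3p did not follow the pool, with medians of 0.866 rpmm in pool 8, 0.529 in pool 9 and 0.759 in pool 10, and its log2 fold change in HY minus IY was -0.38 ± 0.24. In contrast, miR-133a-3p was at 260 to 418 rpmm in the 7 livers of pool 8, at 102 in IA mouse 7A and at 1.501 to 9.51 in the others. The 4 HY livers outside pool 8 had 1.501 to 8.67 rpmm of it and the 8 IY livers, none of them in pool 8, 1.71 to 9.51, so HY and IY overlapped there.

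**Figure D5:**
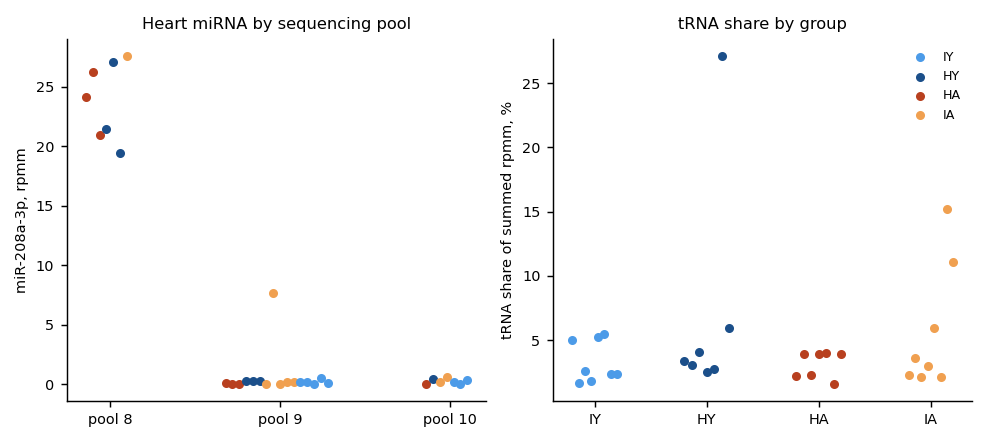
Left, miR-208a-3p (rpmm) in each liver library by sequencing pool, and right, the share of tRNA in the filtered signal (%) by group, with 1 point per mouse. The livers of pool 8 lie between 19.4 and 27.6 rpmm, and HY mouse 2B has a tRNA share of 27.1%.

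miR-29c-3p, 1 of a family that represses collagen and other matrix genes, did not differ detectably between groups in rpmm. It was at 1288 to 2562 rpmm in IY, 667 to 2582 in HY, 1529 to 2835 in HA and 1359 to 2824 in IA, with means of 1837 ± 429 (SD, n = 8), 1807 ± 583 (n = 7), 1991 ± 459.5 (n = 7) and 2131 ± 475 (n = 8). By the exact permutation test (two-sided) the log2 difference was -0.09 in HA minus IA (p = 0.582), -0.08 in HY minus IY (p = 0.786), 0.21 in IA minus IY (p = 0.224) and 0.20 in HA minus HY (p = 0.548). It was higher in the aged partner in 4 of 7 pairs. Without pair 9, whose libraries had high tRNA shares, the difference was 0.37 in IA minus IY (exact permutation p = 0.0300, adjusted p = 0.120). In HA minus IA it was then -0.25 (exact permutation p = 0.113, adjusted p = 0.226). Scaled to summed miRNA, the difference turned to 0.26 in HY minus IY (exact permutation p = 0.00311, adjusted p = 0.0124) and to -0.19 in HA minus HY (exact permutation p = 0.0513). In the aging cohort miR-29c-3p had a log2 fold change of 0.85 ± 0.29 between 21 and 3 months (adjusted p = 0.222), and miR-29a-3p 0.88 ± 0.27 (adjusted p = 0.125). There miR-29b-3p was called higher at 21 months by limma, with 1.30 ± 0.28 (adjusted p = 0.00498). All 7 miR-29 arms passed the filter in the parabiosis livers. None was called in any of the 4 parabiosis contrasts by limma, with 1 at an unadjusted p under 0.05 in HA minus HY.

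Of the 8 miRNAs that the study linked to age across tissues, 7 passed the filter, miR-487b-3p being the exception. miR-155-5p in HA minus HY was the 1 call among them. The study chose this list on its aging cohort, whose libraries are separate from the parabiosis libraries. miR-184-3p had a log2 fold change of 0.70 ± 0.29 in IA minus IY and 0.36 ± 0.31 in HA minus HY, and miR-1895 had 0.59 ± 0.34 and 0.87 ± 0.36. miR-300-3p and miR-541-5p, both of the Dlk1-Dio3 domain, had 0.06 ± 0.31 and -0.22 ± 0.39 in IA minus IY and 0.79 ± 0.32 and 0.85 ± 0.40 in HA minus IA. The median over the 7 was 0.21 in IA minus IY and 0.69 in HA minus HY, against 0.04 and 0.30 for all miRNAs.

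Hepatocyte miRNAs gave no call. Of 26, 24 passed the filter, and their median log2 fold change was -0.11 in HA minus IA, -0.34 in HY minus IY, 0.06 in IA minus IY and 0.25 in HA minus HY, beside medians over all miRNAs of 0.02, -0.22, 0.04 and 0.30. When levels were scaled to summed miRNA, the medians over all miRNAs became 0.07, 0.02, -0.05 and 0.01, so the lean of miRNAs towards HA over HY and towards IY over HY depends on the scale. miR-802-3p, from a hepatocyte miRNA linked to glucose metabolism, measured 32.96 to 154.7 rpmm in HY and 107 to 336 in HA and was higher in HA in 7 of 7 pairs, with a log2 fold change of 1.26 ± 0.34 (adjusted p = 0.0826). In the aging cohort it was called, with 1.56 ± 0.39 (adjusted p = 0.0317). miR-34a-5p, a p53 target that has been linked to senescence, had 0.69 ± 0.36 in IA minus IY and 0.74 ± 0.39 in HA minus HY and was not called.

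Of the remaining lists, the inflammation list (9 of 13 past the filter) held miR-155-5p as its 1 call and the others held none. The let-7 family (20 of 22 past the filter) had medians of -0.19, -0.36, 0.04 and 0.19 in HA minus IA, HY minus IY, IA minus IY and HA minus HY. The fibroblast and stellate cell miRNAs (10 of 11) had -0.04, -0.25, 0.12 and 0.46, with 5 of the 10 at an unadjusted p under 0.05 in HA minus HY, and the endothelial miRNAs (4 of 4) had -0.11, -0.28, 0.03 and 0.14. The bile duct and epithelial miRNAs (12 of 17) had 0.05, -0.31, 0.07 and 0.53, and the fat miRNAs (6 of 11) 0.08, -0.39, -0.03 and 0.46. For the red blood cell miRNAs (3 of 7) the medians were 0.25, 0.28, 0.13 and 0.07, and the erythrocyte miR-451a was still detected in the perfused livers, at 88.8 to 315 rpmm in IY. The miR-17-92 and miR-106b-25 clusters (19 of 23), the lipid and glucose metabolism list (23 of 27), the Sfmbt2 cluster (14 of 57), the kidney and gut list (5 of 13), the pancreas list (1 of 7), the neuronal list (6 of 10) and the miR-34 family (6 of 8) had medians of 0.20, 0.41, 0.21, 0.42, 0.77, 0.22 and 0.38 in HA minus HY and of -0.02, 0.14, -0.11, 0.27, 0.19, 0.06 and 0.23 in IA minus IY.

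The shares of the RNA classes in the libraries did not differ detectably. miRNA made up 18.6% ± 3.98 (SD, n = 8) of the filtered signal in IY, 15.6% ± 5.23 (n = 7) in HY, 19.7% ± 5.26 (n = 7) in HA and 20.4% ± 4.48 (n = 8) in IA. Over 7 RNA classes and 4 contrasts, 28 exact permutation tests (two-sided) gave a smallest p of 0.0660, for the rRNA share in IA minus IY (8.55% against 10.3%), which is 0.752 after Benjamini-Hochberg adjustment. Single RNAs leaned by class at an unadjusted limma p under 0.05. In HA minus HY 141 of the 225 lower RNAs were snRNAs and 86 of the 140 higher were miRNAs. No snRNA was higher and no miRNA lower there. In HY minus IY 46 of the 69 higher RNAs were snRNAs and 129 of the 167 lower were lncRNAs. The cause of this lean was not tested.

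The HA minus HY count depended on how the pairs and pools entered. With the pair as a random block 31 RNAs were called and with the pair as a fixed block 7, all of the X-linked cluster, and without pool 8 there were 12. Without mouse 2B, 19 RNAs were called in HA minus HY and 24 in IA minus IY.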

How the data were processed

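Small RNA libraries of parabiosis mice were sequenced as single-end reads on a BGI instrument. Per the methods, reads were aligned and counted with miRMaster and Bowtie against miRBase, GtRNAdb, RNACentral and Ensembl, and libraries with too few aligned reads were excluded. The genome build, from the submitters' processing notes, was mm10. The deposited values are a depth-scaled read signal (rpmm), made by the authors from read counts before deposit, filtered by them over all tissues. The values of the 30 liver libraries came out as whole reads for 100% of other RNAs and 98.8% of miRNAs up to 1000 reads (tolerance 0.05), which gave the depth per library (9.87 to 27.98 M) and the reads for edgeR. Depth limits precision for RNAs near 3 reads, and the 3-read floor covers counting error only. The intervals and SE of the fold changes come from the limma fit and reflect the spread between mice within groups. Columns of the authors' own comparisons were not used. Of the aging cohort, 719 columns of other tissues were not used, nor was 1 liver column whose name went against its labels, so 51 liver libraries entered where 52 were planned.

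RNAs with at least 1 rpmm in 3 of the 30 liver libraries were kept (3394 of 5248), and 292 with values identical to another were dropped, leaving 3102. limma 3.58.1 (R 4.3.3) fitted log2(rpmm + 1) with 1 coefficient per group and eBayes with trend, two-sided, with Benjamini-Hochberg adjustment over all 3102, and RNAs under an adjusted p of 0.05 were called. A fold change on this scale understates changes of low RNAs. Tests of 1 value used exact permutation (scipy 1.17.1). The fits were tested on simulated data. Each library is a separate mouse.

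Groups, pair numbers, ages and sequencing pools came from the labels and the deposited annotation, and the strain from the methods. Partners share a pair number because they were sewn together, and the deviations of partners from their group means correlated with r from -0.215 to 0.693 in heterochronic pairs and from -0.290 to 0.756 in isochronic pairs. The main fit had no block, as in the study.

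Per contrast the rule named up to 10 called miRNAs and 4 other called RNAs with the smallest p in each direction, or, with fewer than 3 called miRNAs, the 5 with the smallest p at a mean of at least 10 rpmm, and always the study's 8 age-linked miRNAs, the miR-29 family, miR-122-5p and called list members. Members and lists were chosen with earlier results of these data known. Examples of single Dlk1-Dio3 miRNAs, marker miRNAs, miR-802-3p and miR-34a-5p were named after their values were seen, and miR-878 was added to the X-linked list because its spelling had missed it. Alternatives were scaling to summed miRNA or by median ratio, a pseudocount of 0.1, other filters, identical RNAs kept, edgeR 4.0.16, pair blocks, each pair left out and young ages left out. Those that left out mouse 2B, mice 9A and 9B or pool 8, entered the pool as a covariate or used pool 9 alone, the interaction, and the age contrasts against other tissues were chosen after seeing the data.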

Additional observations from a re-analysis of the deposited data

Results flagged for a closer look

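In each group of 7 or 8 livers the highest and lowest sample were set against the others, and over 224 groups of named values 24 held a sample far from the rest, where chance gives about 1 in 20. HY mouse 2B accounted for 11 of the 24. It had the lowest miR-122-5p (23123 rpmm), miR-29a-3p (1718), miR-29a-5p (15.6), miR-29b-3p (2034), miR-29b-2-5p (1.83), miR-29c-3p (667), miR-29c-5p (5.19), miR-145b (10.1), miR-574-3p (4.61) and miR-744-5p (15.4) of its group, and the highest tRNA share (27.1%).

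In IA, mouse 6B was the highest for the snoRNAs Gm24100 and Gm24862 (3.08 rpmm each), mouse 9A the lowest for let-7e-5p (320.3 rpmm) and mouse 7A the highest for miR-145b (119.5 rpmm). In HY, mouse 1B was the highest for miR-300-3p (4.86 rpmm) and mouse 20B for miR-878-5p (0.124 rpmm). In IY, mouse 17B was the highest for miR-471-3p (1.29 rpmm), miR-883a-5p (0.228 rpmm) and miR-883b-3p (0.607 rpmm), mouse 10B for miR-470-5p (0.465 rpmm), mouse 10A for miR-145b (127 rpmm) and mouse 16B for the snRNA share (20.7%), and mouse 15B was the lowest for miR-883a-3p (0.052 rpmm).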

How the results depend on the processing

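In HA minus IA and HY minus IY no alternative gave a call, except pool 9 alone with 7 in HA minus IA. The counts of 22 in IA minus IY and 23 in HA minus HY became 2 and 2 at a mean of at least 10 rpmm, where fewer RNAs were tested (1418). With identical RNAs kept, IA minus IY had 62. edgeR gave 36 in HA minus HY (27 higher, 9 lower), and HA minus HY had 12 without pool 8 and 12 within pool 9 alone. With each pair left out in turn the counts ran from 17 to 26 and from 17 to 25. With the pair as a fixed replicate block HA minus HY had 7, and with a random block there were 31, and 17 in IA minus IY. Within the X-linked cluster 15 to 24 members were called in IA minus IY and 7 to 24 in HA minus HY over the alternatives other than the filter at a mean of 10 rpmm, which left 2 members. Scaling to summed miRNA moved the median of all RNAs from 0.04 to 0.31 in HY minus IY and from -0.10 to -0.41 in HA minus HY on the log2 scale.

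For miR-29c-3p, scaling to summed miRNA turned the difference to 0.26 in HY minus IY (exact permutation p = 0.00311, adjusted p = 0.0124) and to -0.19 in HA minus HY (p = 0.0513 by the same permutation test), and median ratio scaling to 0.057 in HA minus IA. With each pair left out it ran from -0.19 to 0.14 in HY minus IY and from -0.059 to 0.31 in HA minus HY, turning without pair 2 in both contrasts and without pair 17 in the first. In IA minus IY it ran from 0.12 to 0.37 and in HA minus IA from -0.25 to -0.015, with the largest differences without pair 9. With identical RNAs kept, 6 of 28 class share differences changed sign, in percentage points: rRNA to -0.535 in HY minus IY and 0.618 in HA minus HY, snoRNA to -0.0692 in HA minus IA, scaRNA to 0.00329 in IA minus IY, and lncRNA to -0.485 in HA minus IA and 0.334 in IA minus IY. The causes were not tested. Depth limits the less abundant arms of the X-linked cluster and the snoRNAs, whose young levels lie near 3 reads.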
